A study of Mus musculus with 16 samples.

Results

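The injury response of Trem2-/- joints was read from 8 of 16 libraries of a bulk RNA-seq series on cells of the knee joint, 4 from uninjured Trem2-/- mice (D0) and 4 from Trem2-/- mice taken 7 days after joint injury (D7). Libraries were chosen by the genotype and injury state in their labels, and all 13173 genes that passed a filter on low values were compared between both groups. Both groups carried the same knockout, C57BL/6J-Trem2em2Adiuj/J, on the C57BL/6J background, and the mice of the study were male and 10 weeks of age at injury. Another field of the labels gives an age of 16 weeks and speaks of diabetic and control mice, which does not match the remaining labels, so that groups rest on genotype and injury alone. The injury was a rupture of the anterior cruciate ligament (ACL) by a single compressive overload of the tibia, followed by an injection of buprenorphine, an analgesic, which the study's methods mention only for injured mice. According to the study's methods, joint cells were released with collagenase after skin and muscle had been dissected away, and red blood cells were lysed. The labels do not match the methods on how the tissue was prepared. Whether the cells of these libraries were sorted by CD45, the leukocyte surface protein that Ptprc encodes, is not given in the sources used here. The 4 WT D0 and 4 WT D7 libraries of the C57BL/6J strain entered the fit and are otherwise used only to set the same genes side by side.

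A torn ligament is repaired in phases that overlap, in which neutrophils and monocytes arrive first, macrophages clear debris, and fibroblasts then lay down a provisional matrix that is replaced by fibrillar collagen. In the knee the synovium thickens after ligament rupture, and cartilage-like tissue can form at the joint margin before it ossifies. Trem2 is a lipid-sensing receptor of macrophages and osteoclasts that signals through the adaptor Tyrobp, and macrophages with abundant Trem2 take up lipid and dying cells.

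Trem2 RNA was low in the knockout and was not absent. Its level was 1.88, 0.948, 2.68 and 1.7 CPM at D0 and 4.13, 4.69, 3.42 and 4.84 CPM at D7, and every D7 library lay above every D0 library (log2 fold change 0.94, SE 0.25, adjusted p = 0.00504). In WT joints the same gene (chr17:48346401-48352276, GRCm38.p6) was at 4.56 ± 1.4 CPM at WT D0 and 16.8 ± 5.08 CPM at WT D7 (mean ± SD, n = 4). Which stretch of the gene the allele removes is not given in the sources used here, so these reads do not show whether a full transcript was made. CPM, the deposited read counts scaled to library size by the authors, are the unit of all levels, and each fold change below is on the log2(CPM + 1) scale, D7 against D0 in Trem2-/- mice, with limma's standard error (SE) and Benjamini-Hochberg adjusted p. A gene is said to have risen or fallen where its adjusted p was under 0.05 and its log2 fold change beyond 0.32 in either direction.

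Trem2-/- libraries held 11567073 to 15092035 reads at D0 and 12873514 to 32867818 at D7, so that 3 reads of a gene correspond to 0.10 to 0.25 CPM. The first principal component of the 8 libraries held 78.8% of the variance and placed all D0 libraries (-68.8 to -35.7) apart from all D7 libraries (44.3 to 55.5). The second, with 9.67%, set D0 replicates 1 and 3 (15.2 and 27.4) against D0 replicates 2 and 4 (-23.5 and -31.4), while D7 libraries lay between -0.897 and 7.17. Libraries at D0 also varied more, with a median SD over genes of 0.238 on the log2 scale against 0.135 at D7. Many list counts depended on which D0 pair was used, and several are given without either pair beside the result. Transcripts of Prg4 and Comp were present in all uninjured libraries. Prg4, the lubricin of synovium and superficial cartilage, was at 1939, 2362, 3252 and 9874 CPM at D0 and 8341, 10890.1, 14124 and 7647 CPM at D7. Comp, a cartilage and tendon matrix protein, was at 841, 1296, 1511 and 820.1 CPM at D0 and 3657, 3406, 5599.9 and 3524 CPM at D7. Other cartilage genes were low in some D0 libraries. Matn3 was at 4.1, 18.6, 0.179 and 1.08 CPM at D0, which is 3 reads in replicate 3. Col9a1 was at 19.6, 67, 1.49 and 1.7 CPM at D0. Labels give no batch, and they do not say whether each library is a separate mouse, so p-values measure the spread between libraries. The fit takes that spread from all 16 libraries, WT included. Because the cells were profiled in bulk, fewer cells of a type and less RNA per cell cannot be told apart in anything that follows. Levels are also relative to all other transcripts of a library, so a lower level does not show a smaller number of cells in the joint. How far the rise of other genes lowered such levels was not tested.

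Of 13173 genes tested, 6702 (50.9%) were called: 3284 (24.9%) rose and 3418 (25.9%) fell, and the median log2 fold change over all genes was -0.04. With a fold change over 2, 1400 genes (10.6%) rose and 1190 (9.03%) fell. The 1400 genes that rose over 2-fold took 6.21% to 10.2% of reads at D0 and 36.2% to 41.5% at D7. The 1190 genes that fell over 2-fold went from 16.2% to 24.6% of reads at D0 to 4.67% to 5.80% at D7. All D7 libraries lay above all D0 libraries for 3439 genes (26.1%) and below them for 3461 genes (26.3%). These shares are the background against which the counts over gene lists below are read.

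**Figure D1:**
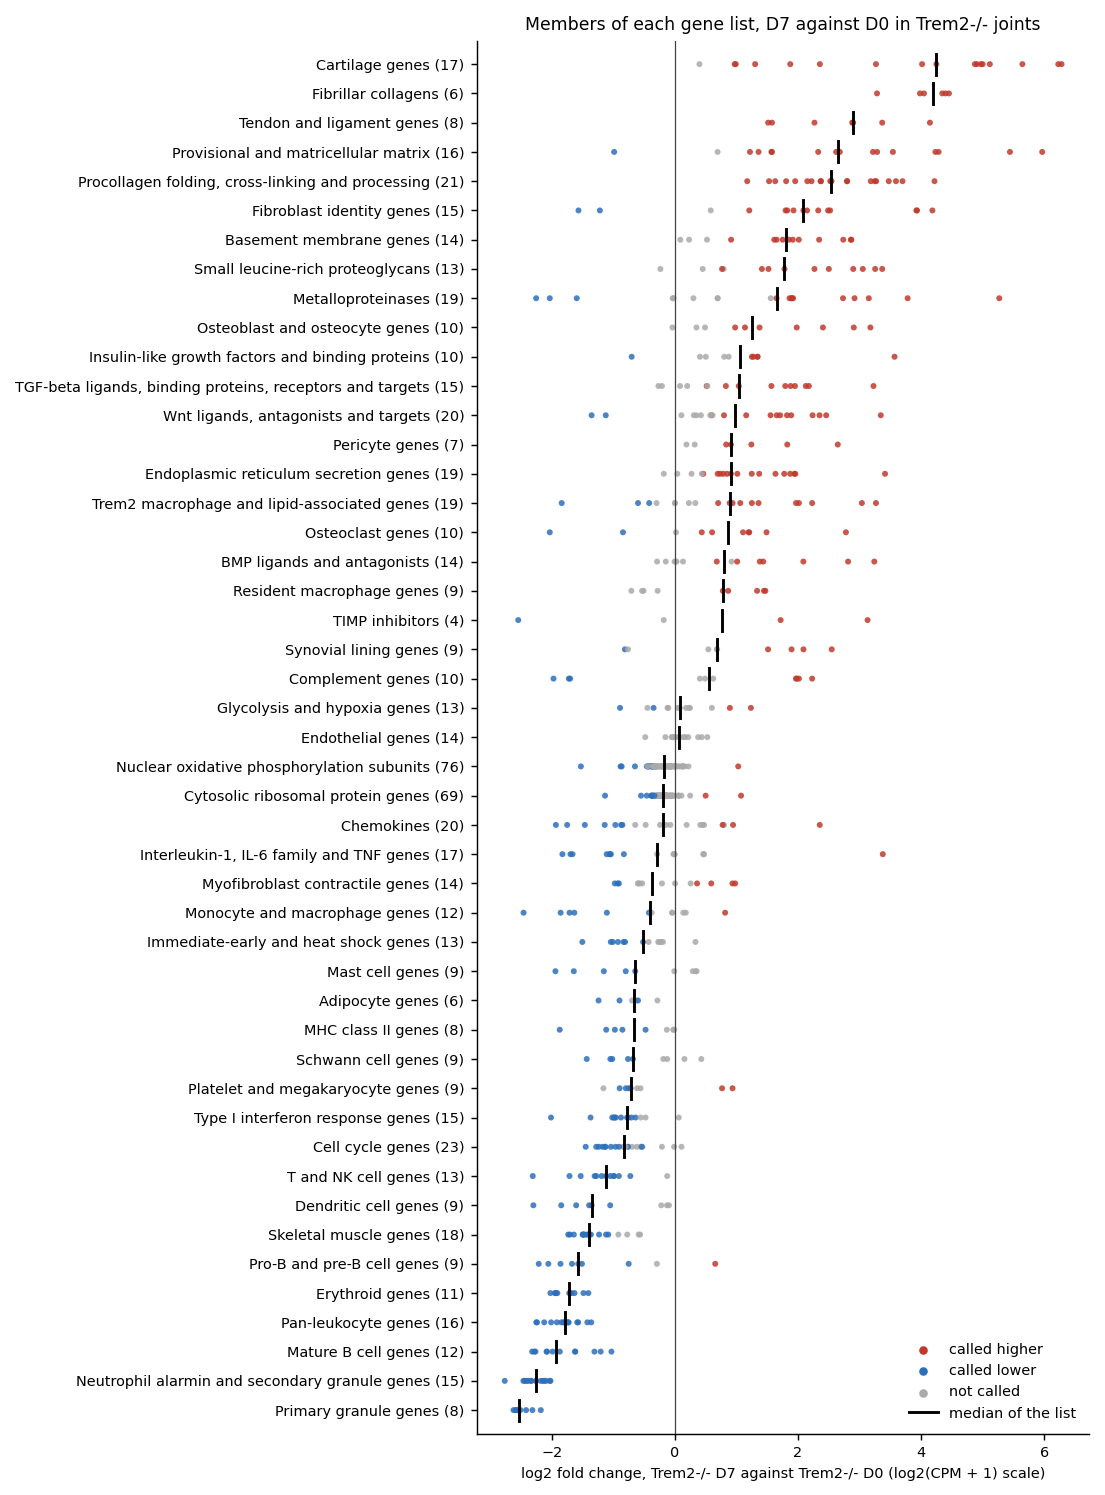
Each point is 1 gene of a list, at its log2 fold change between Trem2-/- D7 and D0 (x axis, log2(CPM + 1) scale), coloured by whether it was called higher, lower or neither, and the black bar is the median of the list, with the number of genes tested in parentheses. Cartilage genes (median 4.25) and fibrillar collagens (median 4.20) sit at the top and primary granule genes (median -2.53) at the bottom.

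The genes with the highest fold changes were matrix genes of fibrogenic and cartilaginous tissue, and those with the lowest were mostly granule genes of immature neutrophils. C1qtnf3 (chr15:10952119-10980162), a secreted protein with a C1q-like domain known from growing cartilage, had 14, 6.06, 7.16 and 6.8 CPM at D0 and 2869, 2011, 1540.0 and 1874 CPM at D7. No other gene that averaged 5 CPM or more over the 8 libraries had a higher fold change (log2 fold change 7.80, SE 0.99, adjusted p = 3.16e-05). Cthrc1, a secreted protein of collagen-producing fibroblasts, went from 6.03 ± 2.77 CPM to 421 ± 96.2 CPM (log2 fold change 5.97, SE 0.70, adjusted p = 2.14e-05). Adam12, a metalloproteinase of activated mesenchymal cells, rose by 5.27 (SE 0.57, adjusted p = 1.51e-05) on the log2 scale, and Fbn2, a fibrillin of developing and healing connective tissue, by 5.18 (SE 0.65, adjusted p = 2.92e-05). The remaining leading genes that rose were Tnn, a tenascin of periosteum and other fibrous tissue, and the cartilage genes Col9a1, Matn3, Col2a1, Col10a1, Lect1, Col9a3 and Col9a2. At the other end stood Chil3, a chitinase-like protein of myeloid cells, the granule genes Elane, Prtn3, Fcnb, Mpo, Ctsg, Ltf and Pglyrp1, the myeloid genes Plac8 and Treml2, and 2 other genes of secreted proteins. These were Timp4, an inhibitor of metalloproteinases (36.9, 110.0, 54.6 and 136 CPM at D0 and 13.7, 9.37, 10.9 and 14.3 CPM at D7), and Cytl1, a secreted protein known from cartilage (130.4, 189, 340.1 and 173 CPM at D0 and 18.3, 18.2, 70.9 and 27.5 CPM at D7). Both fell (log2 fold change -2.54, SE 0.38, adjusted p = 8.25e-05 for Timp4, and log2 fold change -2.73, SE 0.76, adjusted p = 0.00734 for Cytl1) while the cartilage matrix genes named above rose. In each of these 24 genes the D0 and D7 libraries did not overlap, which was required for choosing them.

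**Figure D2:**
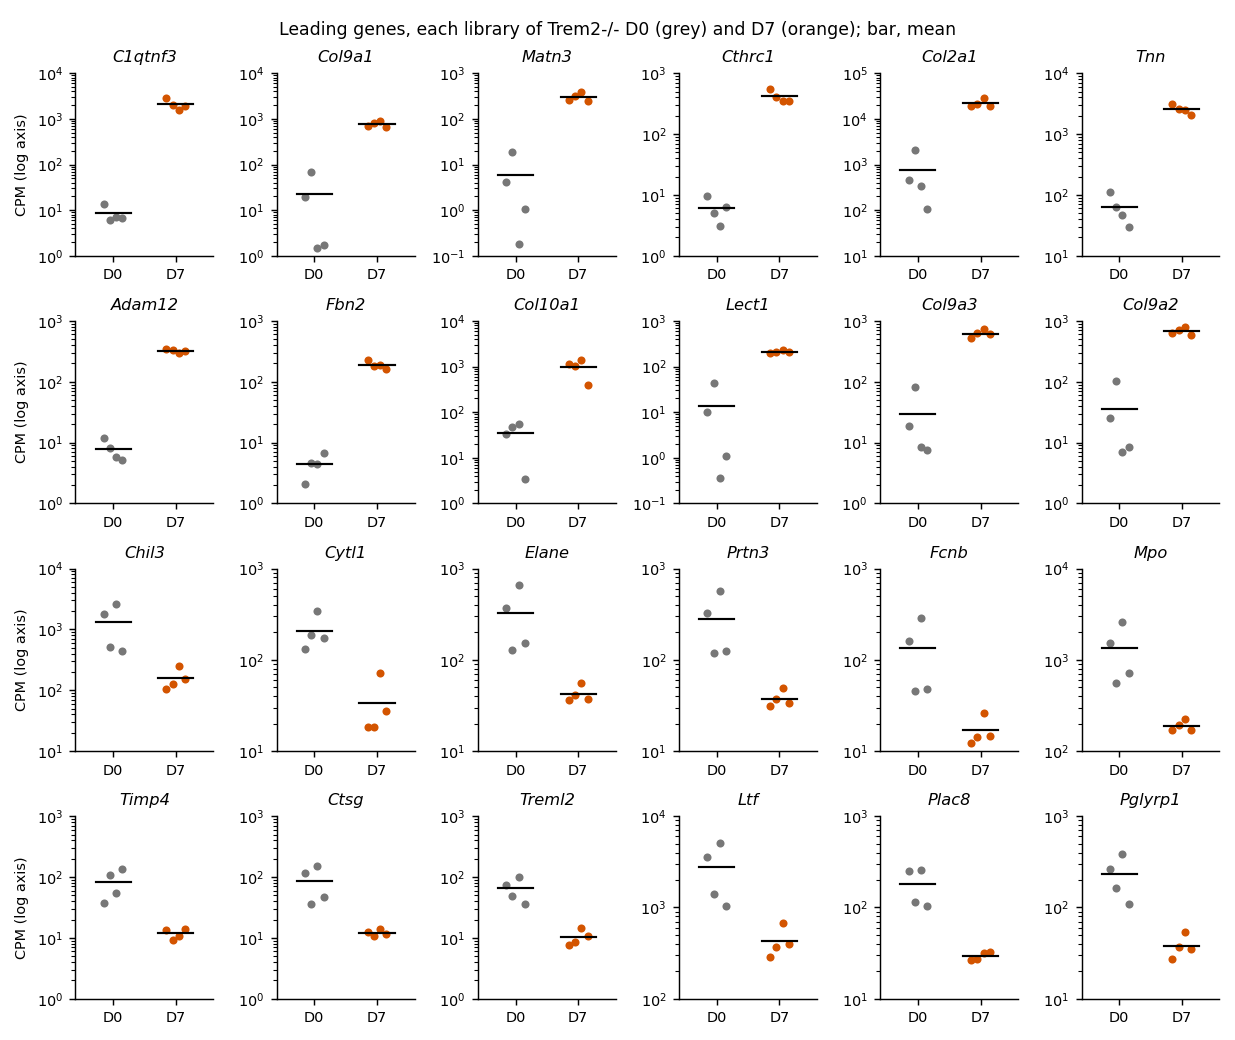
Each panel shows 1 of the 24 leading genes, with CPM on a log axis for the 4 D0 libraries (grey) and the 4 D7 libraries (orange) in replicate order, and the mean as a bar. In cartilage genes such as Matn3 the D0 libraries spread more widely than the D7 libraries, and in granule genes D0 replicates 1 and 3 stand above replicates 2 and 4.

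Fibrillar collagen genes, which encode the load-bearing fibres of ligament, tendon, skin and scar, all rose. Col1a1 was at 3142, 2459, 1282 and 2369 CPM at D0 and 55261, 46550.5, 58146 and 36250.5 CPM at D7, Col1a2 at 2672, 2315, 1034 and 1990.1 CPM at D0 and 32976, 28578, 36172 and 23377 CPM at D7, and Col3a1 at 2792, 2292, 836 and 1920.3 CPM at D0 and 42534, 37426, 37598 and 34004 CPM at D7. In each, the lowest D7 library was more than 8 times the highest D0 library. Fold changes on the log2 scale were 4.45 (SE 0.57, adjusted p = 3.48e-05) for Col1a1, 4.40 (SE 0.56, adjusted p = 3.42e-05) for Col3a1 and 3.98 (SE 0.54, adjusted p = 4.41e-05) for Col1a2. Together these 3 genes took 0.350% to 0.933% of the reads of a D0 library and 8.72% to 11.8% of those of a D7 library. Col5a1, which starts fibrils, and its partner Col5a2 rose by 4.35 and 4.05. All 6 genes of the list rose, with a median of 4.20 against -0.04 over all genes. The 250 bases before the RefSeq start of Col3a1 (chr1:45311288-45311537) and Col1a2 (chr6:4505368-4505617) are shown on GRCm38.p6, both on the plus strand, because these genes rose together in every D7 library. Capitals mark each match, on either strand, to CCAAT, the core of NF-Y sites, to TATAAA, the TATA box, or to GAGGAA, the core of many PU.1 sites.
Col3a1: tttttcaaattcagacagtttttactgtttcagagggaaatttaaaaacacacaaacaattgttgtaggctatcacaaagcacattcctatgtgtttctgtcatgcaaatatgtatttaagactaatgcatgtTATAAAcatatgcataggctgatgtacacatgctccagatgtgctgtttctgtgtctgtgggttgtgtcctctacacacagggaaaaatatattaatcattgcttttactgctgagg
Col1a2: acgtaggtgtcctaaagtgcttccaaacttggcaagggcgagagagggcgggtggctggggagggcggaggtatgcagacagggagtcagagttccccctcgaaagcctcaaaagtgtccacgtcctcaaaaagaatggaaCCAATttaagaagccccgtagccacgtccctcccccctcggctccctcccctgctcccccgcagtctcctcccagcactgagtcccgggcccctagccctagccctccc
Col1a2 held CCAAT and Col3a1 held TATAAA. Over 32851 RefSeq promoter windows of the same length, 33.8% held CCAAT and 12.4% TATAAA. Promoters of 4 of the 6 fibrillar collagen genes were matched, 2 of them with CCAAT. These are matches of letters and not evidence of binding.

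Enzymes and chaperones that fold, cross-link and trim procollagen rose with the collagens. All 21 genes of this list rose, with a median of 2.54, and in all of them the D0 and D7 libraries did not overlap. The highest were P4ha3, a prolyl hydroxylase subunit (log2 fold change 4.22, SE 0.54, adjusted p = 3.27e-05), Fkbp10, a collagen chaperone (log2 fold change 3.70, SE 0.41, adjusted p = 1.67e-05), Plod2, the lysyl hydroxylase of telopeptides (log2 fold change 3.59, SE 0.47, adjusted p = 3.7e-05), and Loxl3, a lysyl oxidase (log2 fold change 3.48, SE 0.41, adjusted p = 2.14e-05). The endoplasmic reticulum genes that carry secreted proteins rose in 15 of 19 cases and fell in none, with a median of 0.91. They were led by the retrieval receptors Kdelr3 (3.42) and Kdelr2 (1.96), the cargo receptor Lman1 (1.94) and Sec24d (1.87), a coat subunit needed for procollagen export. Hspa5, the general chaperone that marks endoplasmic reticulum stress, did not pass the test (log2 fold change 0.04, SE 0.15, adjusted p = 0.833), nor did Xbp1 (0.27).

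The provisional matrix, which fills a wound before collagen fibres mature, rose in 14 of 16 genes with a median of 2.65. Postn, a matricellular protein of healing ligament and periosteum, was at 441, 219, 302 and 233 CPM at D0 and 6519, 5294, 4876 and 5126 CPM at D7 (log2 fold change 4.23, SE 0.56, adjusted p = 3.9e-05). Tnc, the tenascin of wounds, rose by 4.29 (SE 0.57, adjusted p = 3.91e-05), and Thbs2 by 3.54. Fn1, fibronectin, rose by 2.62 and was 0.543% of all reads at D0 and 2.63% at D7. Thbs1 went the other way (9925, 8934, 5201 and 6579 CPM at D0 and 3387, 3517, 3735 and 4437 CPM at D7; log2 fold change -0.99, SE 0.33, adjusted p = 0.0202), so that members of the thrombospondin family moved in opposite directions. Thbs1 is also made by platelets and leukocytes. Its call was lost without D0 replicate 1 (-0.85), D0 replicate 2 (-0.90) or D7 replicate 1 (-0.94), leaving no gene of the list that fell.

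Cartilage genes formed the list with the highest median (4.25), and 16 of 17 rose. Col2a1, the fibrillar collagen of hyaline cartilage, was at 455, 2131, 339 and 104 CPM at D0 and 18809.9, 21441, 28969.5 and 18741 CPM at D7 (log2 fold change 5.65, SE 0.96, adjusted p = 0.000234). Acan, its main proteoglycan, was at 99, 263, 122 and 39.4 CPM at D0 and 2929, 2929, 4069 and 2785 CPM at D7 (log2 fold change 4.88, SE 0.71, adjusted p = 7.19e-05). Uninjured libraries spread widely in Col2a1, with replicate 2 the highest and replicate 4 the lowest, yet the D7 libraries were above all of them. Among regulators, Sox9, the master factor of chondrocytes, was at 26.5, 40.3, 36.9 and 35.3 CPM at D0 and 181, 176, 223 and 148 CPM at D7 (log2 fold change 2.36, SE 0.42, adjusted p = 0.000317), with a narrower range at D0 than the matrix genes it is known to drive. Sox5 and Sox6, its partners, rose by 1.30 and 0.99. Col10a1, a collagen of hypertrophic cartilage that is about to ossify, was at 33.2, 46.4, 55.9 and 3.4 CPM at D0 and 1112, 1004, 1397 and 385 CPM at D7 (log2 fold change 5.13, SE 1.02, adjusted p = 0.00073), with D7 replicate 4 the lowest of its group. Ucma, a protein of growth plate cartilage, rose by 3.27. Cilp2, of mature articular cartilage, did not pass the test (log2 fold change 0.40, SE 0.59, adjusted p = 0.588). Summed over the list, levels were 1399.8 to 4834 CPM at D0 and 32737 to 49572 CPM at D7.

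Tendon, ligament and bone genes rose at lower medians. All 8 tendon and ligament genes rose (median 2.89). Scx, the transcription factor that defines tendon and ligament progenitors, was at 2.55, 3.6, 3.7 and 5.25 CPM at D0 and 46.1, 28.9, 33 and 29.9 CPM at D7 (log2 fold change 2.90, SE 0.35, adjusted p = 2.51e-05). Tnmd, a membrane protein of mature tendon, was at 31.7, 40.2, 30.3 and 54.1 CPM at D0 and 379, 274, 289.7 and 233 CPM at D7 (log2 fold change 2.89, SE 0.48, adjusted p = 0.000197), and Kera, keratocan, was at 18.3, 18.7, 19.5 and 17.9 CPM at D0 and 193, 159, 266 and 201 CPM at D7 (log2 fold change 3.37, SE 0.39, adjusted p = 2.14e-05). Col12a1, which links collagen fibrils, rose by 4.14. Of the osteoblast and osteocyte genes 7 of 10 rose (median 1.26), led by Ibsp, the bone sialoprotein (log2 fold change 3.18, SE 0.59, adjusted p = 0.000454), Dmp1, a mineralization protein of osteocytes (log2 fold change 2.91, SE 0.53, adjusted p = 0.000375), and Sp7, the osteoblast factor osterix (log2 fold change 1.98, SE 0.33, adjusted p = 0.000195). Runx2, which acts upstream of Sp7, was not called (log2 fold change -0.04, SE 0.16, adjusted p = 0.855), and Bglap2, an osteocalcin gene of mature osteoblasts, did not pass the test (log2 fold change 0.49, SE 0.65, adjusted p = 0.544). Genes of osteoclasts, the cells that resorb bone and need the Trem2 adaptor Tyrobp in culture, rose in 7 of 10 cases (median 0.86). They included Ctsk, the collagen-degrading cathepsin (66.8, 65, 31.1 and 82.6 CPM at D0 and 418, 412, 476 and 323 CPM at D7; log2 fold change 2.78, SE 0.39, adjusted p = 5.68e-05), Acp5, the acid phosphatase used to stain osteoclasts (19.6, 15.4, 25.6 and 20.5 CPM at D0 and 44.8, 55.7, 53.4 and 37.9 CPM at D7; log2 fold change 1.21, SE 0.21, adjusted p = 0.000242), and the proton pump subunit Atp6v0d2 (log2 fold change 1.49, SE 0.18, adjusted p = 2.2e-05). Ctsk is also made by fibroblasts. Calcr, the calcitonin receptor of mature osteoclasts, fell (log2 fold change -0.84, SE 0.22, adjusted p = 0.00493), as did Mmp9, which neutrophils share.

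Of the fibroblast identity genes 12 of 15 rose and 2 fell, with a median of 2.09. The collagen VI genes Col6a3, Col6a1 and Col6a2 led (4.18, 3.94 and 3.92), followed by Fbn1 (2.52), the fibrillin of elastic microfibrils. Pi16 and Dpp4, which mark progenitor-like fibroblasts, fell. Pi16 was at 192, 140.5, 157 and 107 CPM at D0 and 39.6, 48, 54.6 and 53.7 CPM at D7 (log2 fold change -1.56, SE 0.19, adjusted p = 2.7e-05) and Dpp4 at 37, 25.2, 19.4 and 21.9 CPM at D0 and 11.9, 8.89, 11.2 and 9.17 CPM at D7 (log2 fold change -1.22, SE 0.19, adjusted p = 0.000119), with no overlap between D0 and D7 in either. Small leucine-rich proteoglycans, which regulate fibril diameter, rose in 10 of 13 cases (median 1.78), with log2 fold changes of 3.25 for Lum, 3.05 for Bgn and 2.90 for Aspn. Dcn, decorin, the usual companion of mature collagen, did not pass the test (log2 fold change 0.79, SE 0.38, adjusted p = 0.0869). Basement membrane genes rose in 11 of 14 cases (median 1.80), led by Col18a1, Nid2 and Lamb1 (2.87, 2.86 and 2.74). The laminin chains Lamb2 and Lama2 did not pass the test (0.23 and 0.52).

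Contractile and endothelial genes did not rise as lists. Of 14 contractile genes that mark myofibroblasts and smooth muscle, 4 rose and 3 fell, and Acta2, the smooth muscle actin by which myofibroblasts are recognized, was at 349, 933, 290.4 and 852 CPM at D0 and 487, 513, 455 and 397 CPM at D7 (log2 fold change -0.21, SE 0.31, adjusted p = 0.592). D0 replicates 2 and 4 were above every D7 library in Acta2, and replicates 1 and 3 below every one. Without D0 replicates 1 and 3, 1 of the contractile genes rose and 7 fell, and without replicates 2 and 4, 6 rose and 1 fell. Leaving out D0 replicate 3 alone raised the number that fell to 7, and leaving out D0 replicate 2 or 4 or D7 replicate 1, 3 or 4 lowered it to 1. No endothelial gene of 14 was called in either direction by limma (median 0.07), 0 by edgeR or DESeq2 and 0 at an unadjusted p under 0.05. However, 1 fell without D0 replicates 1 and 3 and 2 rose without replicates 2 and 4. Pecam1 was at 476, 834, 514 and 844 CPM at D0 and 639, 782, 649 and 855 CPM at D7. Summed endothelial levels were 2707, 4893, 3240.4 and 5687 CPM at D0 and 3871, 4644, 3751 and 5120.5 CPM at D7, so the groups overlapped. Pericyte genes rose in 5 of 7 cases (median 0.91), with Cspg4 (log2 fold change 2.65, SE 0.36, adjusted p = 4.74e-05), a proteoglycan that chondrocytes and fibroblasts also carry, well above Rgs5 (0.91) and Notch3 (0.32, not called). The pericyte count was 3 without D0 replicates 1 and 3. In the synovial lining list 4 of 9 genes rose and 1 fell. Prg4, given above, rose (log2 fold change 1.51, SE 0.61, adjusted p = 0.0459), but D0 replicate 4 was higher than D7 replicates 1 and 4, and the call was lost when any 1 library other than D0 replicate 4 was left out (1.23 to 1.64). Has2, the hyaluronan synthase of mesenchymal cells, rose by 1.90 on the log2 scale. Has3 fell by 0.81, a call that was lost without D0 replicate 2 or 4 or D7 replicate 2 or 4 (-0.75 to -0.62), whereas 2 genes of the list fell without D0 replicate 1.

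**Figure D3:**
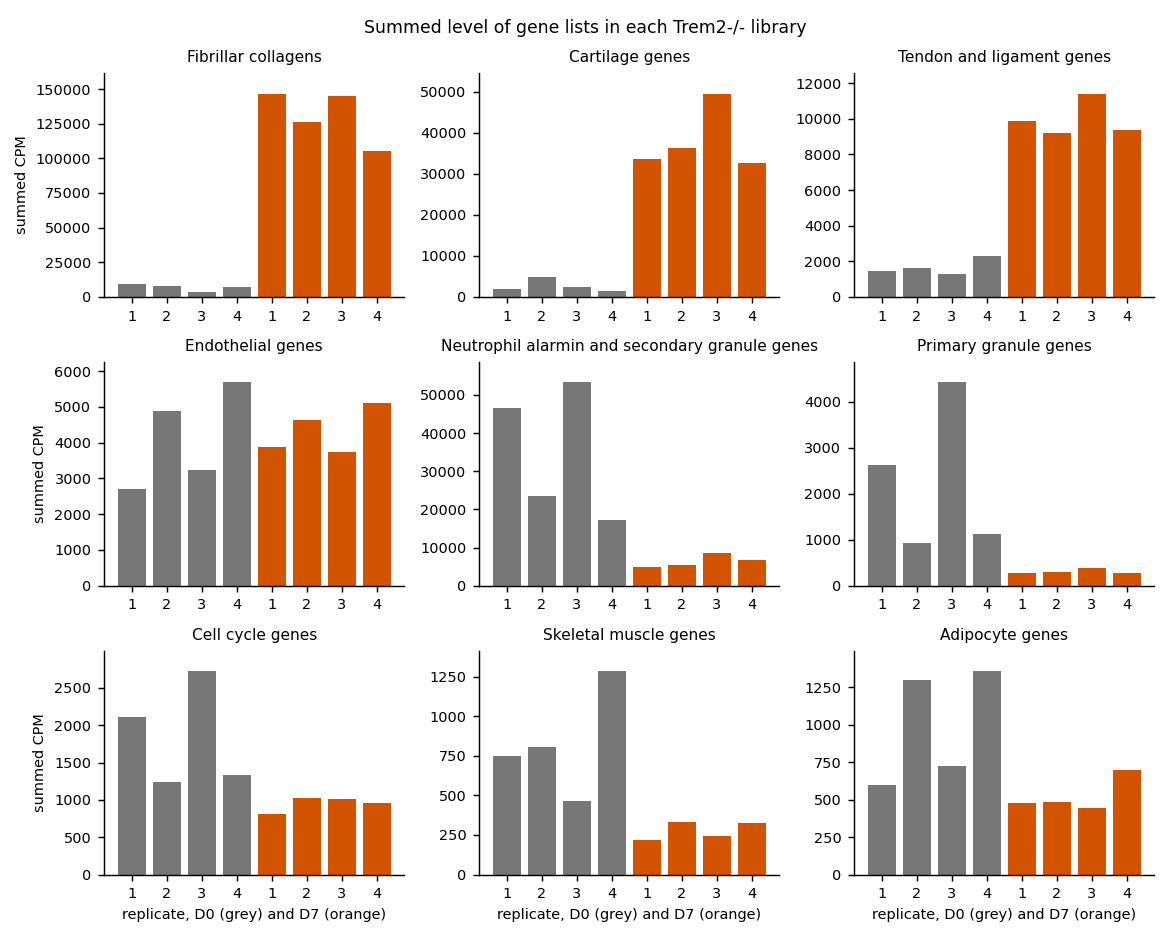
Bars give the summed CPM of all listed genes of 9 lists in each Trem2-/- library (grey, D0 replicates 1 to 4; orange, D7 replicates 1 to 4), on axes that start at 0. Collagen, cartilage and tendon sums were higher in every D7 library than in any D0 library, endothelial sums overlapped, and neutrophil and primary granule sums were highest in D0 replicates 1 and 3, whereas adipocyte sums were highest in D0 replicates 2 and 4.

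Matrix proteases and their inhibitors moved in both directions. Of 19 metalloproteinases 10 rose and 3 fell (median 1.65). Mmp14, the membrane-bound collagenase of fibroblasts, was at 108, 108, 53.8 and 121 CPM at D0 and 1575, 1324, 1321 and 1036 CPM at D7 (log2 fold change 3.78, SE 0.44, adjusted p = 2.14e-05), and Mmp2, the gelatinase it activates, rose by 3.15 (SE 0.46, adjusted p = 7.11e-05). The proteases that fell, Mmp8 (-2.25), Mmp9 (-2.03) and Adam8 (-1.59), are known from neutrophils and other myeloid cells. Mmp13, the collagenase of degrading cartilage, was at 127, 71.6, 23 and 84.5 CPM at D0 and 188, 182, 707 and 159.9 CPM at D7 and rose by 1.92 (SE 0.77, adjusted p = 0.0475), with D7 replicate 3 well above the other libraries. The call was lost when any 1 library other than D0 replicate 1 was left out (1.42 to 2.13). Adamts5, an aggrecanase of cartilage, did not pass the test (log2 fold change 0.69, SE 0.33, adjusted p = 0.0866). Of 4 TIMP inhibitors 2 rose and 1 fell: Timp1 rose by 3.13 (SE 0.49, adjusted p = 0.000117) and Timp2 by 1.72, Timp3 was not called (-0.18), and Timp4 fell, as described above.

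Growth factor families that act on matrix-producing cells held more genes that rose than fell. In the TGF-beta list 10 of 15 genes rose and none fell (median 1.04). Inhba, which encodes activin A, was at 20.2, 23.8, 20.5 and 27.7 CPM at D0 and 146, 208, 268 and 299.9 CPM at D7 (log2 fold change 3.23, SE 0.46, adjusted p = 6.59e-05), and the ligands Tgfb2 and Tgfb3 rose by 2.13 and 1.04. Tgfb1, the ligand that leukocytes also make, was not called (log2 fold change 0.08, SE 0.11, adjusted p = 0.518). Smad7, an inhibitory target of the pathway, was not called (-0.21). In the BMP list 7 of 14 rose (median 0.80), and Gdf5, the joint-forming growth factor, was highest (log2 fold change 3.24, SE 0.40, adjusted p = 2.94e-05), ahead of Fstl1 (2.81) and the antagonist Chrd (2.09). The BMP count was 4 without D0 replicates 1 and 3. Of 20 Wnt genes 12 rose and 2 fell (median 0.98), led by Dkk3, a Dkk family member (3.35), the antagonist Sfrp1 (2.46), Rspo2, an amplifier of Wnt signals (2.35), and Wnt5b (2.24). Axin2, the common readout of canonical Wnt signalling, was not called (log2 fold change 0.42, SE 0.20, adjusted p = 0.0838), and Lef1, a Wnt-responsive factor that lymphocytes also use, fell (-1.12). The Wnt count was 7 without that D0 pair. Igf1, a growth factor of mesenchymal cells and repair macrophages, was at 59.2, 49.2, 16.2 and 36.5 CPM at D0 and 527, 427, 482 and 355 CPM at D7 (log2 fold change 3.57, SE 0.52, adjusted p = 7.38e-05), and of the insulin-like growth factor list 5 of 10 rose and 1 fell, and 8 rose without D0 replicates 2 and 4.

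Leukocyte transcripts fell as a group. All 16 pan-leukocyte genes fell (median -1.78), and Ptprc was at 726, 678, 709.9 and 418 CPM at D0 and 140.1, 168, 206 and 178 CPM at D7 (log2 fold change -1.84, SE 0.25, adjusted p = 4.13e-05). Rac2, the GTPase of blood cells, fell by 2.25 on the log2 scale, and Coro1a, an actin regulator of leukocytes, by 2.24. Neutrophil lists had lower medians. All 15 genes of the alarmin and secondary granule list fell (median -2.26), with S100a9 at 14352, 8602, 15466 and 5847 CPM at D0 and 1668, 1699.7, 2596 and 2346 CPM at D7 and Ltf, lactoferrin, at 3552, 1402, 5072 and 1041 CPM at D0 and 284, 372, 680.4 and 396 CPM at D7. All 8 primary granule genes, which neutrophils transcribe as promyelocytes in bone marrow, fell with a median of -2.53. Elane, the neutrophil elastase, was at 370.3, 129, 655 and 154 CPM at D0 and 35.9, 41.1, 56.3 and 37.6 CPM at D7 (log2 fold change -2.62, SE 0.49, adjusted p = 0.000485), and Mpo, myeloperoxidase, at 1529.6, 561, 2565 and 713 CPM at D0 and 172, 193, 227 and 170.0 CPM at D7 (log2 fold change -2.56, SE 0.47, adjusted p = 0.000382). D0 replicates 1 and 3 held about 2 to 5 times the Elane and Mpo of replicates 2 and 4, and the D7 libraries were below all of them. All 8 primary granule genes also fell without replicates 1 and 3 and without replicates 2 and 4. Summed levels of the list were 2629, 934, 4424 and 1131 CPM at D0 and 275, 309, 393 and 282 CPM at D7.

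Elane and Prtn3, which encodes proteinase 3, lie next to each other on chromosome 10, and the 250 bases before the RefSeq starts of Elane (chr10:79886062-79886311), Prtn3 (chr10:79879417-79879666) and Mpo (chr11:87793534-87793783) are shown, plus strand, because these genes fell together. Capitals mark the letters named for the collagen genes.
Elane: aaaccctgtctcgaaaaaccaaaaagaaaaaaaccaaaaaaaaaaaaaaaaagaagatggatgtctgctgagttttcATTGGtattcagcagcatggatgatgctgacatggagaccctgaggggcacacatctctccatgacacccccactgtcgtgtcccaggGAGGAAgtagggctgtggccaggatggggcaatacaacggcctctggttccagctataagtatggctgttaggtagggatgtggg
Prtn3: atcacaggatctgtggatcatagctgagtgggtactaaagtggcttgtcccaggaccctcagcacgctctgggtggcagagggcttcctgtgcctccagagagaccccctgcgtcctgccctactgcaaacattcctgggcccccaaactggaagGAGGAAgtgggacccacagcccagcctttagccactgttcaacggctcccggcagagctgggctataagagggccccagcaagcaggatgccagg
Mpo: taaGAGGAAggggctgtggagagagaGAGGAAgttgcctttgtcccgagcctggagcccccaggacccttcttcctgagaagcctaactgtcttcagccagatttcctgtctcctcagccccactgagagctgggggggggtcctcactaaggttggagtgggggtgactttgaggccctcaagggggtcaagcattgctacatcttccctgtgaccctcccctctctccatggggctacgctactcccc
Each of the 3 held GAGGAA, as did 4 of the 6 primary granule genes with a matched promoter and 23.3% of the 32851 promoter windows. No binding was measured here.

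Macrophage genes split. Of 12 monocyte and macrophage genes 6 fell, 1 rose, and the median was -0.40. The 4 lowest are also known from monocytes or granulocytes: Plac8 (-2.46), the Fc receptor genes Fcgr4 (-1.85) and Fcgr3 (295, 175, 285 and 153 CPM at D0 and 63.3, 59.2, 72.2 and 69.5 CPM at D7; log2 fold change -1.71, SE 0.25, adjusted p = 8.09e-05), and Ccr2, the receptor by which monocytes leave the marrow (84.5, 41.4, 113 and 37 CPM at D0 and 15.3, 22.7, 17.9 and 22.4 CPM at D7; log2 fold change -1.63, SE 0.36, adjusted p = 0.00146). Csf1r, the growth factor receptor that macrophages need, was at 151, 120.3, 151 and 114 CPM at D0 and 133, 144, 120.1 and 121 CPM at D7 (log2 fold change -0.04, SE 0.20, adjusted p = 0.866). Adgre1, which encodes F4/80, was at 39.8, 32.2, 33.3 and 29.3 CPM at D0 and 61.9, 63.7, 49.6 and 65 CPM at D7 and rose (log2 fold change 0.82, SE 0.18, adjusted p = 0.00176).

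Genes of Trem2-expressing and lipid-handling macrophages rose in 11 of 19 cases and fell in 3 (median 0.89). In bulk libraries this count does not show which cells made the transcripts. Several of these markers define a macrophage cluster in the single-cell data of the same study. Fcrls, an Fc receptor-like scavenger receptor, was at 1.08, 2.08, 0.656 and 2.16 CPM at D0 and 19.5, 25.2, 19.9 and 24.7 CPM at D7 (log2 fold change 3.27, SE 0.29, adjusted p = 7.52e-06), and Ms4a7, a membrane protein of monocyte-derived macrophages, at 2.35, 1.39, 0.954 and 1.47 CPM at D0 and 19.1, 22.3, 16.4 and 20.7 CPM at D7 (log2 fold change 3.04, SE 0.31, adjusted p = 1.21e-05). C1qa, a subunit of the complement initiator made by tissue macrophages, was at 17.2, 33.2, 6.86 and 24.3 CPM at D0 and 75.4, 76.5, 61.9 and 88.2 CPM at D7 (log2 fold change 2.02, SE 0.38, adjusted p = 0.000448), and C1qb rose by 2.23 (SE 0.35, adjusted p = 0.000117). In all 4 the lowest D7 library was above the highest D0 library. Spp1, osteopontin, rose by 1.36 (SE 0.32, adjusted p = 0.00253), but bone and stromal cells make it too. Apoe was at 226, 287, 208 and 337 CPM at D0 and 436, 460.4, 311 and 516 CPM at D7 (log2 fold change 0.70, SE 0.24, adjusted p = 0.0211), and D0 replicate 4 was above D7 replicate 3. Its call was lost without D0 replicate 1 or 3 or D7 replicate 2 or 4 (0.60 to 0.66). Gpnmb, a lysosomal gene of lipid-laden macrophages, was not called (log2 fold change 0.23, SE 0.35, adjusted p = 0.602). Tyrobp itself was at 548, 466, 480.3 and 381 CPM at D0 and 113, 117, 146 and 145 CPM at D7 and fell (log2 fold change -1.84, SE 0.27, adjusted p = 8.16e-05). Tyrobp is also expressed by neutrophils and NK cells. Without any 1 of 5 libraries (D0 replicate 2 or any D7 replicate) 1 gene of the list fell instead of 3.

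Among resident macrophage genes 5 of 9 rose and none fell (median 0.78). Mrc1, the mannose receptor CD206, was at 15.9, 18.3, 10.7 and 15.8 CPM at D0 and 48.1, 42.6, 40.9 and 41.4 CPM at D7 (log2 fold change 1.47, SE 0.20, adjusted p = 4.62e-05), and Maf and Folr2 rose by 1.45 and 1.34. Lyve1, Timd4 and Cd163, which define long-lived resident cells, were not called (-0.53, -0.51 and -0.71), but all 3 fell without D0 replicate 3 (-0.85, -0.75 and -1.11). Lyve1 is also a gene of lymphatic vessels. Without D0 replicates 1 and 3, 3 genes of the list rose and 3 fell. In MHC class II the median was -0.66. These genes, which macrophages, dendritic cells and B cells use to present antigen, fell in 5 of 8 cases, led by H2-Ob (-1.87), a B cell gene, and Ciita, the regulator of the class (-1.11). The classical chain H2-Aa was not called (log2 fold change -0.13, SE 0.19, adjusted p = 0.59).

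**Figure D4:**
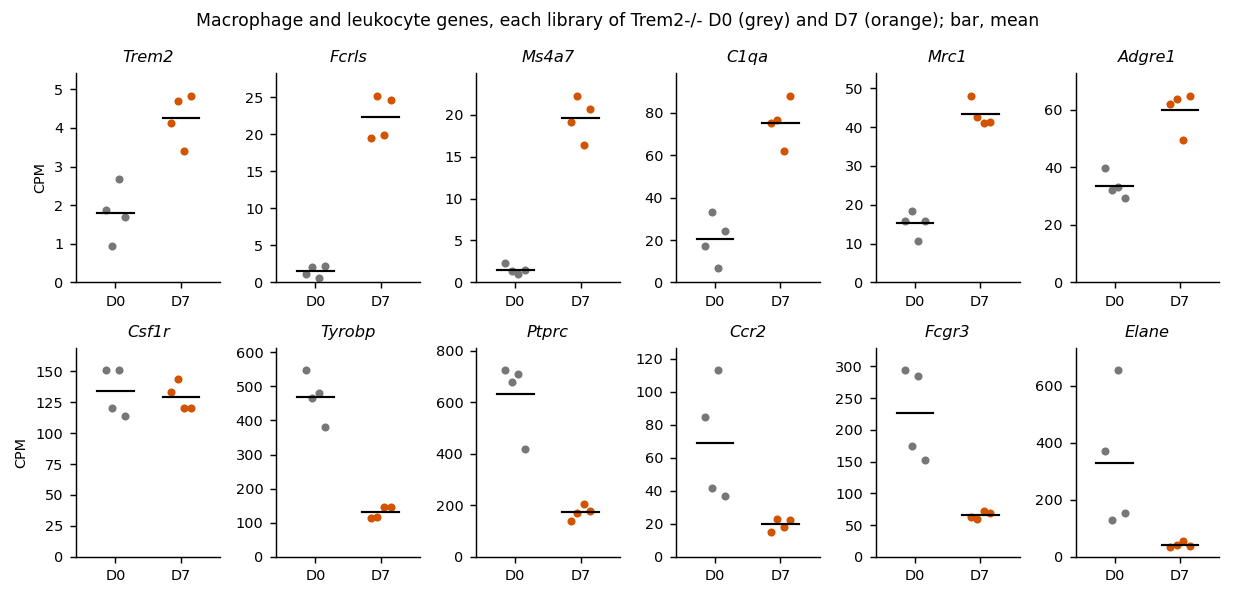
Each panel shows CPM of 1 gene in the 4 D0 libraries (grey) and the 4 D7 libraries (orange), on linear axes from 0, with the mean as a bar. Trem2, Fcrls, Ms4a7, C1qa, Mrc1 and Adgre1 were higher in every D7 library, Csf1r overlapped, and Tyrobp, Ptprc, Ccr2, Fcgr3 and Elane were lower in every D7 library.

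Genes of lymphoid and other marrow-derived lineages mostly fell, except those of platelets, which were mixed. All 12 mature B cell genes fell (median -1.93), and Cd79a, part of the B cell receptor, was at 57.3, 64.6, 39.8 and 76.4 CPM at D0 and 8.13, 10.1, 12.3 and 13.4 CPM at D7 (log2 fold change -2.32, SE 0.31, adjusted p = 4.68e-05). Of the pro-B and pre-B genes 7 of 9 fell, including Rag1, the recombinase of immature lymphocytes (26.7, 19, 22.9 and 32.3 CPM at D0 and 3.63, 3.03, 5.99 and 6.34 CPM at D7; log2 fold change -2.21, SE 0.33, adjusted p = 8.78e-05). Ebf1 rose (0.66), a factor that fat and stromal progenitors share. T and NK genes fell in 12 of 13 cases (median -1.12), led by Nkg7 (-2.31), a cytotoxic granule gene, while Cd4 was not called (-0.12). With a filter of at least 5 CPM on average, which tests fewer genes, 3 T and NK genes and 4 pro-B and pre-B genes fell. Dendritic cell genes fell in 6 of 9 cases, led by Siglech of plasmacytoid cells (-2.30), and Clec9a of conventional cells was not called (-0.22). Of the mast cell genes 5 of 9 fell, and these were Hdc, Cpa3, Fcer1a, Gata2 and Ms4a2, which basophils also express. The mast cell count was 3 without D0 replicates 1 and 3. The Ms4a2 call held only with all libraries or without D0 replicate 2 (otherwise -0.70 to -0.55). Mcpt4 and Tpsb2, proteases of connective tissue mast cells, were not called (0.35 and 0.29). All 11 erythroid genes fell (median -1.72), with Klf1, the erythroid factor, at 13.9, 14.2, 20.8 and 14.6 CPM at D0 and 2.65, 3.93, 2.69 and 3.25 CPM at D7 and Hba-a1, an alpha globin, at 1202, 1925, 753 and 1376 CPM at D0 and 319, 385, 289.9 and 730.0 CPM at D7. The erythroid count was 8 without D0 replicates 1 and 3. Platelet genes went both ways, with 2 higher and 4 lower of 9. Without D0 replicates 1 and 3, 0 of them fell, and without replicates 2 and 4, 7. With single libraries left out the number that fell ranged from 0 (without D0 replicate 1) to 5, and 1 rose without D0 replicate 2, 3 or 4 or D7 replicate 1 or 4.

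In the list of interleukin-1, IL-6 family and TNF genes, those that passed the test fell, with the exception of Il11. This list holds receptors as well as cytokines, and 8 of its 17 genes fell and 1 rose (median -0.29). Il1b was at 1487, 1487, 724 and 767 CPM at D0 and 272, 286, 365 and 427 CPM at D7 (log2 fold change -1.66, SE 0.31, adjusted p = 0.000504), Osm, a cytokine of neutrophils and macrophages, fell by 1.83 on the log2 scale, and Il6 was at 551, 277, 253 and 413 CPM at D0 and 173, 181, 203 and 251 CPM at D7 (log2 fold change -0.83, SE 0.32, adjusted p = 0.0407). The Il6 call was lost without D0 replicate 1 or 4 or D7 replicate 1, 2 or 3 (-0.84 to -0.62). Il11, a fibroblast cytokine of the IL-6 family, was at 5.78, 4.93, 3.1 and 7.03 CPM at D0 and 53, 61.5, 60.4 and 73.8 CPM at D7 and rose (log2 fold change 3.38, SE 0.49, adjusted p = 7.58e-05). Without D0 replicate 4, 2 genes of the list rose. The receptor chain of Il11, Il11ra1, was not called (0.46). Of 20 chemokines 7 fell and 3 rose. Ccl6, Ccl3 and Ccl4, which myeloid cells secrete, fell by 1.93, 1.75 and 1.46 on the log2 scale, and without D0 replicate 1 or 2, or without replicates 1 and 3 together, the number of chemokines that fell was 4. Cxcl5, a neutrophil attractant, rose (20.4, 2.65, 1.91 and 2.78 CPM at D0 and 19.4, 35.6, 17.4 and 42.1 CPM at D7; log2 fold change 2.35, SE 0.68, adjusted p = 0.00917), although D0 replicate 1 was above D7 replicates 1 and 3. Ccl2 and Ccl7, the attractants of monocytes, were not called (log2 fold change 0.48, SE 0.52, adjusted p = 0.458 for Ccl2, and log2 fold change 0.41, SE 0.60, adjusted p = 0.582 for Ccl7). Among 10 complement genes 4 rose, the C1q genes and C3ar1, and 3 fell. C3 fell (log2 fold change -1.97, SE 0.26, adjusted p = 3.77e-05), and C3ar1, the receptor of its fragment, rose (log2 fold change 1.98, SE 0.26, adjusted p = 3.54e-05). Genes induced by type I interferon fell in 11 of 15 cases and rose in none (median -0.78). The interferon count was 8 without D0 replicates 1 and 3 and also 8 without replicates 2 and 4. Oas3 was at 70.3, 72.8, 73.1 and 33 CPM at D0 and 13.6, 12.5, 15.3 and 14.7 CPM at D7 (log2 fold change -2.01, SE 0.31, adjusted p = 0.000108), and Isg15 fell by 1.02 on the log2 scale.

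In the muscle, nerve and fat lists every gene that passed the test fell. Of 18 skeletal muscle genes 14 fell (median -1.40), with Acta1, the skeletal actin, at 275, 246, 156 and 401 CPM at D0 and 60.2, 94.2, 62.3 and 95.1 CPM at D7 (log2 fold change -1.73, SE 0.39, adjusted p = 0.00189). The skeletal muscle count was 15 without D0 replicates 1 and 3, 2 without replicates 2 and 4, and 8 without D0 replicate 4 or D7 replicate 1, and D0 replicate 4 had the highest sum of the list (752, 809, 465 and 1286 CPM at D0 against 218, 335, 244 and 325 CPM at D7). Schwann cell genes fell in 5 of 9 cases, all of them myelin genes or Sox10, the lineage factor. Mbp, a myelin protein, was at 172, 237, 172 and 292 CPM at D0 and 89.8, 62.3, 56.7 and 118 CPM at D7 (log2 fold change -1.43, SE 0.23, adjusted p = 0.000144). Without D0 replicates 2 and 4, 1 of these genes fell, and without D0 replicate 2 or 4 or D7 replicate 2 or 3 alone, 1 to 3, while 1 gene rose without D0 replicate 1 or 3. Sox10 was lost without each of these and without D7 replicate 1 (-0.75 to -0.52). Of the adipocyte genes 3 of 6 fell, 5 without D0 replicates 1 and 3, 0 without replicates 2 and 4, and 1 without D0 replicate 2 or 4 or D7 replicate 1, 2 or 3 alone. The study's methods state that muscle was dissected away before digestion, and how much of it was left in each joint was not measured.

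The number of proliferation genes that fell depended on the uninjured libraries. Of 23 cell cycle genes 11 fell and none rose (median -0.83). The replicative helicase genes led, with Mcm5 at 117, 71.6, 148 and 72.6 CPM at D0 and 29.3, 38.9, 37.7 and 35.2 CPM at D7 (log2 fold change -1.45, SE 0.33, adjusted p = 0.00213), whereas the mitotic cyclin Ccnb1 was not called (0.11). Mki67, the proliferation marker, was at 364, 172, 472 and 184 CPM at D0 and 105, 147, 148 and 132 CPM at D7 (log2 fold change -1.04, SE 0.38, adjusted p = 0.0331). D0 replicates 1 and 3, which also had the most neutrophil and primary granule transcripts, had the most Mki67, and its call was lost without D0 replicate 1 or 3 or D7 replicate 1 or 4 (-1.04 to -0.77). The count of cell cycle genes that fell was 7 without D0 replicate 3, 3 without replicates 1 and 3 and 20 without replicates 2 and 4. Histone genes, taken by symbol after the values were seen, fell in 24 of 32 cases (median -0.93). Marrow-type granule genes moved with the cell cycle genes across the D0 libraries, and their part in this result was not tested.

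Among stress-response lists, of 13 immediate-early and heat shock genes 7 fell (median -0.52), led by Hspa1b (3301, 2970.0, 9389.7 and 3067 CPM at D0 and 907, 1381, 1798 and 1944 CPM at D7; log2 fold change -1.50, SE 0.42, adjusted p = 0.00701), and Fos was not called (log2 fold change -0.27, SE 0.26, adjusted p = 0.398). Tissue digestion is known to induce these genes, of which 4 fell without D0 replicates 1 and 3. Glycolysis and hypoxia genes showed 2 higher and 2 lower of 13, with Bnip3 and Pdk1 higher (1.24 and 0.89). Of 69 ribosomal protein genes 2 rose and 9 fell (median -0.19), and of 76 nuclear subunits of oxidative phosphorylation 1 rose and 15 fell (median -0.18). In both lists the share that fell was below the background of 25.9%. The lowest members, Rpl3l (-1.13) and Cox6a2 (-1.53), are known as forms of striated muscle. With single libraries left out, 2 to 10 ribosomal genes fell (2 without D0 replicate 1 or 3 or D7 replicate 1, 4 without D7 replicate 2 or 3), and 9 oxidative phosphorylation genes fell without D0 replicate 1 or D7 replicate 2. Leaving out pairs of D0 libraries moved these counts further, and 1 ribosomal and 7 oxidative phosphorylation genes fell without replicates 1 and 3, against 12 and 18 without replicates 2 and 4. With median-of-ratios scaling or thinned reads 5 ribosomal genes fell. With a fold threshold of 1.5, 1 ribosomal and 4 oxidative phosphorylation genes fell. For glycolysis genes 1 fell without D0 replicate 1 or D7 replicate 1.

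Gene families were also counted by symbol, a grouping chosen after the values were seen. Of 43 collagen chain genes 34 rose and none fell (median 2.85). Of 17 Adamts proteases 9 rose and none fell (median 1.29), and all 4 syndecans, cell surface proteoglycans, rose (median 1.80). Of 20 semaphorins 9 rose and 2 fell. Among 26 integrins 10 rose and 6 fell, and the share that fell was near the background of 25.9%. Of 9 Toll-like receptors 7 fell and 1 rose (median -0.92), and of 23 C-type lectins 12 fell and 1 rose (median -0.50). All 5 Oas genes, antiviral enzymes, fell (median -0.98). Of 267 zinc finger Zfp genes 41 rose and 66 fell (median -0.11), and of 36 proteasome subunits 4 rose and 4 fell (median 0.03), both below the background share in either direction.

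WT joints were measured in the same way and share no library with the Trem2-/- comparison. In WT 2020 genes (15.3%) rose and 1583 (12%) fell with the same fit. That fit takes its error from all 4 groups: with only the WT groups fitted 1154 rose and 582 fell, whereas in Trem2-/- joints 6905 genes were called with only their own groups fitted. WT D0 libraries differed widely, and replicate 4 was highest in each of the 3 matrix genes given here. Col1a1 was at 6018, 1918, 3714 and 18523 CPM at WT D0, Col2a1 was at 1504, 198, 4754 and 7409 CPM, and C1qtnf3 was at 24.4, 3.82, 13.6 and 659 CPM. Means of Col2a1 were 3466 ± 3252 CPM at WT D0 and 42086 ± 15204 CPM at WT D7 (SD, n = 4). The interaction of genotype and injury, which tests whether the change differed, passed for 0 of 13173 genes (0%) with limma and for 1 gene with DESeq2. The lowest adjusted p with limma was 0.579. Without adjustment, where many of 13173 genes pass by chance alone, 1075 genes had a limma p under 0.05. Of 6702 genes called in Trem2-/- joints, 6637 had a mean change of the same sign in WT, and 3374 were called in WT in the same direction and 0 in the opposite one. With only the groups compared in each fit, the shared calls were 1690. List medians, Trem2-/- first and WT second, were 4.20 and 2.83 for fibrillar collagens, 4.25 and 3.39 for cartilage genes, 2.89 and 1.07 for tendon and ligament genes, and -1.78 and -0.78 for pan-leukocyte genes. They were -0.40 and 0.20 for monocyte and macrophage genes and 0.89 and 0.75 for the Trem2 macrophage list. Some lists had the larger change in WT. Medians were 0.78 and 1.01 for resident macrophage genes and 0.69 and 0.76 for synovial lining genes. They were -0.19 and -0.38 for ribosomal protein genes and -0.18 and -0.27 for oxidative phosphorylation subunits. Of 69 ribosomal protein genes 9 fell in Trem2-/- joints and 39 in WT. Without WT D0 replicate 4, WT medians were 3.43 for fibrillar collagens, 3.84 for cartilage genes and 1.32 for tendon and ligament genes, 4093 genes were called in WT, 3805 of them shared, and the interaction passed for 0 genes with limma (632 at an unadjusted p under 0.05, lowest adjusted p of 0.988). The smallest interaction p of genes with a larger rise or smaller fall in Trem2-/- joints belonged, among genes that averaged 5 CPM or more, to Kera (log2 difference 2.38, SE 0.56, unadjusted p = 0.000644, adjusted p = 0.579), Egfl6, an extracellular matrix protein (log2 difference 1.72, SE 0.43, unadjusted p = 0.00119, adjusted p = 0.579), and Cnep1r1, a lipid phosphatase regulator (log2 difference 0.52, SE 0.14, unadjusted p = 0.00225, adjusted p = 0.579). In the other direction stood Fkbp15 (log2 difference -0.65, SE 0.15, unadjusted p = 0.000531, adjusted p = 0.579), Map4k2, a kinase (log2 difference -0.96, SE 0.22, unadjusted p = 0.000641, adjusted p = 0.579), and Dgkz, a diacylglycerol kinase of lymphocytes among other cells (log2 difference -0.85, SE 0.20, unadjusted p = 0.000696, adjusted p = 0.579). None of these passed after adjustment, which does not show that the genotypes respond alike.

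**Figure D5:**
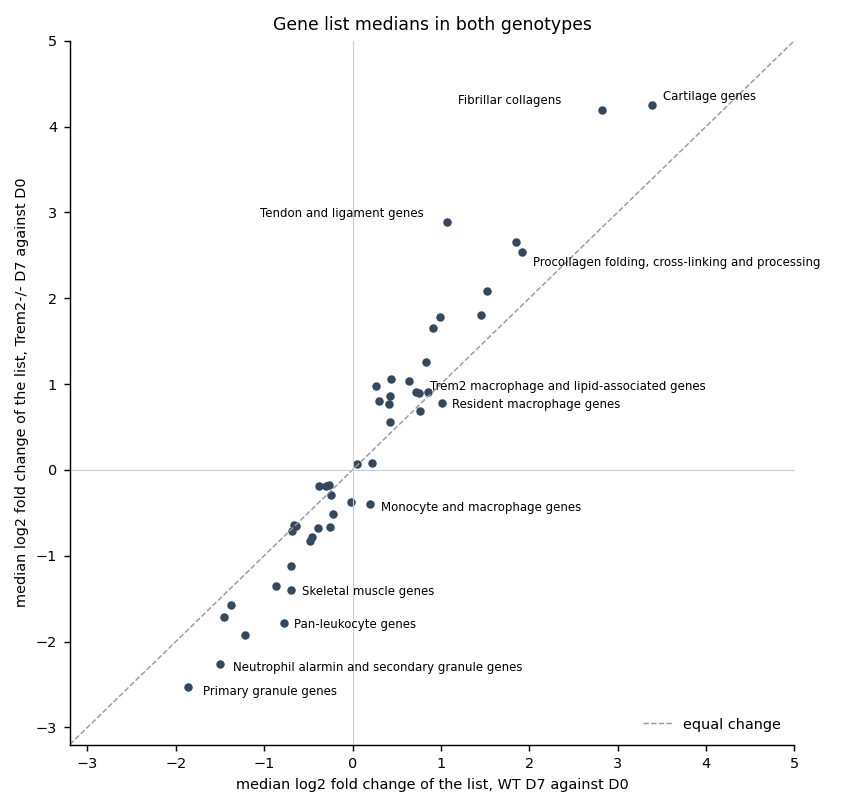
Each point is 1 of the 47 gene lists, with its median log2 fold change between D7 and D0 in WT (x axis) and in Trem2-/- joints (y axis), and the dashed line marks equal change. Fibrillar collagens lie at 4.20 in Trem2-/- and 2.83 in WT, and at 3.43 in WT without WT D0 replicate 4, and no gene passed the test of a difference between the genotypes with limma.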

How the data were processed

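Deposited signal values, 1 column per library, were read counts per library size (CPM) that the authors had scaled by edgeR TMM factors after alignment to mm10 with STAR and counting with featureCounts. Tool versions, annotation and strand setting are not given in the sources used here, so antisense and overlapping genes may share reads, and genes with near-identical copies, such as Hba-a1, Bglap2 and Chil3, are uncertain. Whole reads were recovered from the steps between low values (100% within 0.1 read) and used for count-based alternatives. The table held 13733 genes after 1 repeated row was removed, of which 13173 had at least 1 CPM in at least 4 of 16 libraries. Values were log2(CPM + 1) transformed and fitted with limma (version 3.58.1) over the 4 groups of 4 libraries, with eBayes trend and Benjamini-Hochberg adjustment. Genes with an adjusted p under 0.05 and a log2 fold change beyond 0.32 were called. Alternatives were other pseudocounts, filters and scalings, edgeR 4.0.16, DESeq2 1.42.0, voom, thinning to 11567073 reads, a replicate block and each Trem2-/- library left out. Leaving out pairs of D0 libraries or WT D0 replicate 4 was added after the data were seen. The fit was tested on simulated data.

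Libraries were grouped by genotype and injury in the labels. The gene lists and the genes named were chosen with earlier results of these data known, so counts over lists describe them and test nothing. Named genes were Trem2, Tyrobp, Apoe and Ptprc, the 12 highest and 12 lowest fold changes among called genes that averaged 5 CPM or more and did not overlap, up to 4 called members per list and direction, members not called where a list needed them, and up to 3 genes per direction by interaction p. The following were named outside this rule, after their values were seen: Acan, Calcr, Col1a2, Comp, Fn1, Fth1, Hba-a1, Il6, Mki67, Mmp13, Ms4a2, Ngp, S100a8, S100a9, Sox5, Sox6, Sox9, Sox10, Spp1, Tgfb3, Thbs2 and Ucma. Genes such as Kera, Spp1, Mmp9 and C1qa stand on more than 1 list. Promoters and gene positions are from RefSeq on GRCm38.p6.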

Additional observations from a re-analysis of the deposited data

Results flagged for a closer look

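In a group of 4 libraries, a value was singled out where the gap between the highest or lowest library and its nearest neighbour took up more than 0.83 of the range of the group. This was checked in 474 groups of 4 (190 printed genes and 47 list sums, at D0 and at D7), and 31 met it, against about 1 in 20 expected by chance.

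In D7 replicate 3 there were 8 such values, all of them high. They were Acan (ratio of gap to range 0.887), Comp (0.886), Sox6 (0.895), Cspg4 (0.866), Dcn (0.833), Bglap2 (0.906), Mmp13 (0.948) and Fcnb (0.833). D7 replicate 1 was high for Cd163 (0.861) and Ebf1 (0.835) and low for Cnep1r1 (0.896), and D7 replicate 4 was high for H2-Ob (0.875) and for the summed adipocyte genes (0.840).

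In D0 replicate 4 there were 6, high for Prg4 (0.835), for the summed synovial lining genes (0.899), which Prg4 dominates, and for Fn1 (0.971), and low for Ptprc (0.845), Oas3 (0.930) and Ccl4 (0.831). Fn1 was at 4004, 4045, 3938 and 7624 CPM at D0 and 25371, 26125, 37292 and 28179 CPM at D7. D0 replicate 3 was high for Hspa1b (0.948), Klf1 (0.900) and Map4k2 (0.851) and low for Timp2 (0.970), Col6a2 (0.845) and Il11ra1 (0.873). D0 replicate 1 was high for Ccl2 (0.978), Cxcl5 (0.953) and C1qtnf3 (0.862). D0 replicate 2 was high for Col9a3 (0.848) and Ibsp (0.874) and low for Tgfb1 (0.889). Ccl2, the monocyte attractant, was at 239.7, 47.6, 51.8 and 48.1 CPM at D0 and 69.5, 113, 78.3 and 176 CPM at D7.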

How the results depend on the processing

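Trem2-/- joints kept many genes called under all 26 alternatives (23 planned and 3 added after the data were seen), with 4981 to 7173 in all and 6014 to 6779 when 1 library was left out. Leaving out 1 library gave 2967 to 3397 genes that rose, 3018 to 3382 that fell, 1262 to 1560 over 2-fold higher and 1159 to 1296 over 2-fold lower. A pseudocount of 5 lowered the 2-fold counts to 908 and 752, since it shrinks changes of low genes. Without D0 replicates 1 and 3 the calls were 2448 higher and 2598 lower, and without replicates 2 and 4 they were 3452 higher and 3367 lower. In WT, 1736 genes were called when the fit held only the groups compared (3603 otherwise), and 4093 without WT D0 replicate 4. The interaction gave 1 gene with DESeq2. It gave 1026 with an unadjusted p under 0.05 and the same fold threshold, where many genes pass by chance alone. With the replicate number as a replicate block 6731 genes were called. The labels do not say whether D0 and D7 libraries of equal number come from the same mouse. Correlations between the deviations of D0 and D7 replicates 1 to 4 were -0.20, -0.12, 0.11 and 0.02 in Trem2-/- joints. In WT they were 0.05, 0.20, 0.41 and 0.31, and WT libraries of unequal number gave -0.43 to 0.34. These values do not settle whether the libraries were paired. Some genes that were not called changed sign. With 1 library left out, log2 fold changes ranged from -0.12 to 0.017 for Csf1r, -0.11 to 0.030 for Runx2, -0.50 to 0.060 for Acta2, -0.0898 to 0.32 for Ccnb1 and -0.19 to 0.45 for Gpnmb. Without D0 replicates 1 and 3, Csf1r was at 0.14, Gpnmb at -0.077, Lamb2 at -0.27, Notch3 at -0.32, Pecam1 at -0.21 and Runx2 at 0.0065. Without D0 replicates 2 and 4, Acta2 was at 0.53, Ccl2 at -0.13, Ccnb1 at -0.35, Cd4 at 0.065, H2-Aa at 0.049, Hspa5 at -0.062 and Timp3 at 0.076. Quantile normalization put Hspa5 at -0.46. The cause of these changes was not tested. Genes near 3 reads (0.10 to 0.25 CPM) cannot be compared at this depth.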

Other observations

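Single genes took up large parts of the libraries. As a mean share of the reads, Col1a1 went from 0.255% at D0 to 4.40% at D7, Col3a1 from 0.216% to 3.42%, Col1a2 from 0.221% to 2.72% and Col2a1 from 0.0835% to 1.97%. The largest losses were those of S100a9, from 1.22% to 0.187%, and Ngp, a neutrophil granule protein, from 0.709% to 0.0965%. Next came Thbs1, from 0.844% to 0.340%, and Fth1, the ferritin heavy chain, from 0.741% to 0.258%. Losses of S100a8, the partner of S100a9, from 0.571% to 0.0997%, and of Hspa1b, from 0.518% to 0.136%, were smaller. These genes were picked from the largest shifts after the values were seen, and the ranking is not complete. Fn1, with 0.543% at D0 and 2.63% at D7, gained more than Col2a1. A mitochondrial gene that went from 0.609% to 0.142% lost more than Hspa1b.

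Other families counted by symbol, also after the values were seen, were mixed. Of 26 Hox genes, which give position along the limb, 10 rose and 1 fell, and of 13 Sox factors 5 rose and 1 fell. Of 244 solute carriers 94 rose and 56 fell. Of 8 Mcm helicase genes 7 fell and none rose.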
